A study of Mus musculus with 13 samples.

Results

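Myotubes that carry 2 copies of a deletion of the H19/Igf2 imprinting control region (dICR/dICR) were compared with wild-type myotubes across all genes. The comparison takes 7 of the 13 RNA-seq libraries of the series, 2 from dICR/dICR and 5 from wild-type cells. Primary myoblasts had been taken from the hind limb muscle of pups of postnatal day 2 to 3, of mixed strain, and were kept for 24 hours in 1% horse serum, a medium in which they leave the cell cycle and fuse. The other 6 libraries were undifferentiated myoblasts of both genotypes, 2 dICR/dICR and 4 wild type, and enter here through the spread they add to the model and in a last comparison. The labels do not say whether the replicates came from separate pups or cultures, so the p-values measure the spread between these libraries, which may in part be technical. Sex, litter and the sequencing platform of each library are not given, and no further allele or agent is named for either genotype.

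The imprinting control region lies between Igf2, which encodes a fetal growth factor, and H19, which encodes a long noncoding RNA. On the maternal chromosome the region binds the insulator protein CTCF and keeps downstream enhancers from Igf2, so that H19 is transcribed. On the paternal chromosome it is methylated, and Igf2 is transcribed. Loss of the region in mice is known to lower H19 and to release Igf2 from its insulation. When myoblasts differentiate, myogenin and other muscle factors come on, genes of DNA replication and mitosis are shut off by pocket proteins bound at E2F sites and at the cell-cycle homology region (CHR), and sarcomere genes follow.

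Total counts were 56.44 M and 43.26 M in the dICR/dICR myotubes, against 35.56 M, 36.46 M and 48.78 M in wild-type myotubes 1 to 3 and 6.52 M and 5.31 M in wild-type myotubes 4 and 5. Genes of small nucleolar RNAs took at most 0.177% of counts in the 5 larger libraries, against 4.17% and 4.68% in the 2 smaller ones, so these differ in more than depth, and log2 fold changes are also given against wild-type myotubes 1 to 3 alone. Wild-type myotube 2 stood apart in another way. The antiviral gene Isg15 was at 1.36 and 0.404 CPM (counts of the gene per 1 M counts of the library, with totals scaled by the trimmed mean of M values) in dICR/dICR myotubes, against 0.305, 193, 0.409, 0 and 0 CPM in wild-type myotubes 1 to 5. The mean log2 CPM of 17 interferon response genes was 1.34 and 0.52 in dICR/dICR myotubes, against -0.40, 5.88, 0.08, -0.04 and 0.36 in wild-type myotubes, and wild-type myotube 2 was thus the 1 library with these genes high. The Y-linked gene Ddx3y was at 104 and 20.5 CPM in dICR/dICR myotubes, against 176, 39.1, 99.9, 0.462 and 0.407 CPM in wild-type myotubes, so RNA of the Y chromosome was close to absent in wild-type 4 and 5 alone.

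All 7 libraries held the genes that define differentiating muscle. The 7 myotube markers all had negative log2 fold changes over all libraries, with a median of -1.43 and 0 called by edgeR or DESeq2. In 5 of them both dICR/dICR libraries lay below all 5 wild-type ones, against 8.76% of all genes. The embryonic myosin gene Myh3 was at 3664 and 7220.1 CPM in dICR/dICR myotubes, against 10832, 8849.8, 12909.5, 9529 and 16601 CPM in wild-type myotubes. Myog, which encodes myogenin, was at 1253 and 1669 CPM in dICR/dICR myotubes, against 6412, 2497, 4111, 4196 and 3435 CPM in wild-type myotubes, and the groups did not overlap although the difference did not pass (log2 fold change -1.5 ± 0.86, edgeR adjusted p = 0.388). Markers of other cells were summed in each library. For scale, 9.14% of all tested genes were higher and 7.63% lower at an unadjusted edgeR p under 0.05 over all libraries. DESeq2 called 2.61% higher and 4.17% lower. Of 8 leukocyte markers 7 were tested and 0 called by edgeR (1 higher and 2 lower at an unadjusted p under 0.05, 1 lower by DESeq2), and their summed level was 4.63 and 3.56 CPM in dICR/dICR myotubes, against 3.31, 5.55, 14.6, 5.39 and 5.30 CPM in wild-type myotubes. Of 7 endothelial markers 5 were tested and 0 called by edgeR or DESeq2, none at an unadjusted p under 0.05, with sums of 4.07 and 2.02 CPM in dICR/dICR myotubes, against 0.610, 2.28, 1.49, 3.69 and 3.87 CPM in wild-type myotubes. The fibroblast markers summed to 258 and 109.9 CPM in dICR/dICR myotubes, against 234, 984, 301, 397 and 389 CPM in wild-type myotubes, and most of that sum was collagen (Col3a1 185 and 92.6 CPM against 203, 888, 174, 321 and 342 CPM). The fibroblast receptor gene Pdgfra was at 0.182 and 0.333 CPM in dICR/dICR myotubes, against 0.343, 0.549, 2.93, 3.08 and 1.02 CPM in wild-type myotubes. The fibroblast marker list had a median log2 fold change of -1.99 with 0 of 9 tested genes called by edgeR (1 higher and 5 lower at an unadjusted p under 0.05, 2 lower by DESeq2). In this list 8 values were negative and 1 was positive, at 3.69, with both dICR/dICR libraries above all 5 wild-type ones. Without wild-type myotube 2, edgeR called 1 of 8 fibroblast markers higher and 0 lower. RNA came from whole cultures, so fewer cells of a kind and less RNA per cell cannot be told apart in any of these values.

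The other marker lists also differed between libraries. The smooth muscle and pericyte markers summed to 1027 and 2278 CPM in dICR/dICR myotubes, against 2961, 4488, 3250.2, 2178 and 2158 CPM in wild-type myotubes, nearly all of it Acta2 (1019.5 and 2276 CPM against 2959.9, 4402, 3225, 2122 and 2116 CPM), an actin gene that muscle cells also express. The pericyte receptor gene Pdgfrb was at 1.58 and 0.143 CPM in dICR/dICR myotubes, against 0, 79.8, 12.4, 10.6 and 5.30 CPM in wild-type myotubes. Of these 6 markers 0 were called by edgeR (2 lower at an unadjusted p under 0.05, 1 lower by DESeq2). The adipocyte markers summed to 151 and 64.7 CPM in dICR/dICR myotubes, against 13.2, 48.5, 18.5, 18.3 and 7.54 CPM in wild-type myotubes, so both dICR/dICR sums were the highest. Most of both dICR/dICR sums came from Lpl, the lipoprotein lipase gene, at 145 and 56.6 CPM in dICR/dICR myotubes, against 4.38, 39.5, 7.31, 5.23 and 2.85 CPM in wild-type myotubes (log2 fold change 3.06 ± 0.88, edgeR adjusted p = 0.126). Of 7 adipocyte markers 4 were tested and 0 called by edgeR over all libraries (1 higher at an unadjusted p under 0.05 and by DESeq2), and 1 was called higher without wild-type myotube 2. The Schwann cell markers summed to 1.24 and 1.71 CPM in dICR/dICR myotubes, against 1.18, 1.71, 11.7, 13.2 and 4.89 CPM in wild-type myotubes, with wild-type 3 and 4 the highest, and of 4 tested 0 were called by edgeR or DESeq2 (1 lower at an unadjusted p under 0.05). The erythroid markers Hba-a1 and Hbb-b1 had 0 counts in every myotube library. The part of other cells in the results below was not tested.

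Over all libraries, 92 of 16537 tested genes were called, that is, passed a Benjamini-Hochberg adjusted p of 0.05 in edgeR's quasi-likelihood test (0.556%). Of these 55 were higher (0.333%) and 37 lower (0.224%) in dICR/dICR myotubes. In each of the 92, both dICR/dICR libraries lay outside the range of the 5 wild-type libraries. Such separation was seen in 10.5% of all tested genes for values above wild type and in 8.76% for values below it. Against wild-type myotubes 1 to 3 alone, fitted from 5 libraries, only 3 of 14420 genes were called (0.0208%), BC002163, Gm5506 and Rprl3, all lower in dICR/dICR myotubes, while 1755 had an unadjusted p under 0.05 and DESeq2 called 630. BC002163 was called in both comparisons. Reads of these 3 gene models can be shared with near-identical copies elsewhere, so their values are uncertain. All 92 genes kept their sign against wild-type 1 to 3. When the same contrast was taken from all 13 libraries with separate means for the larger and the smaller wild-type libraries, a fit chosen after the data were seen, 601 genes were called (3.63%), 299 higher (1.81%) and 302 lower (1.83%), and the 92 were all among them with the same direction.

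The number of calls rested on single libraries. Without wild-type myotube 2 it was 919 (5.93%), of which 711 were higher (4.59%) and 208 lower (1.34%), and the 92 genes were all among them. Without dICR/dICR myotube 1 it was 1, without dICR/dICR myotube 2 it was 22 and without wild-type myotube 3 it was 17. The gene that stayed called with any 1 of the 13 libraries left out was Celf4, and 7 further genes lost their call only without dICR/dICR myotube 1, among them Hhip, Lpar2, Igsf5, Osbp2, Zfp105 and Mecom. No called gene changed sign when 1 library was left out. With the 7 myotube libraries fitted alone, 1 gene was called, and with a replicate block 3 were.

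**Figure D1:**
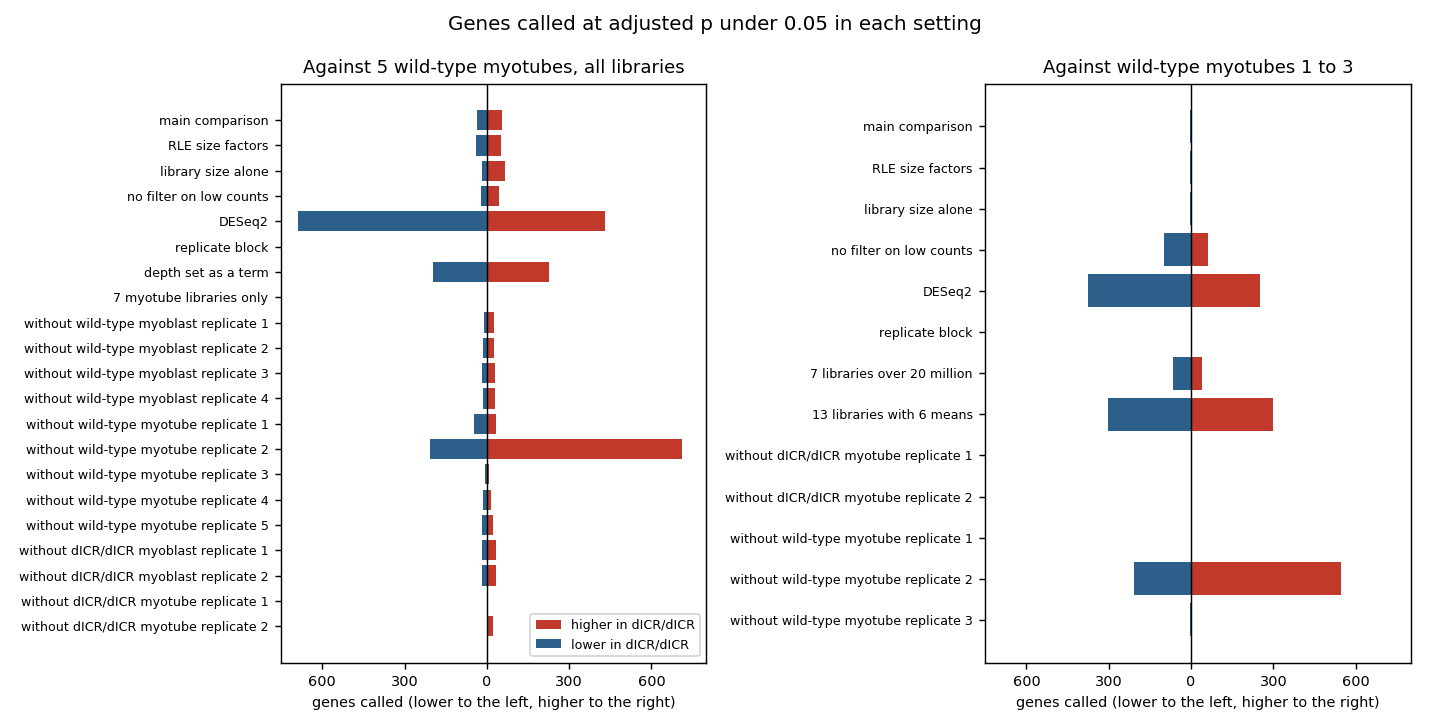
Number of genes called at adjusted p under 0.05 in each setting, higher in dICR/dICR to the right and lower to the left, against all 5 wild-type myotubes (left panel) and against wild-type myotubes 1 to 3 (right panel). Leaving out wild-type myotube 2 gave 711 higher and 208 lower genes on the left and 545 and 207 on the right, against 55 and 37 and against 0 and 3 in the main comparisons.

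H19 and Igf2 flank the deletion, and H19 checks the genotype labels. H19 was at 57.5 and 52.4 CPM in dICR/dICR myotubes, against 29131, 19086, 15905, 28632 and 40495 CPM in wild-type myotubes, 2 groups of values that lay far apart. Its log2 fold change of -8.92 ± 1.21 passed over all libraries (± gives the standard error, edgeR adjusted p = 0.0143), and against wild-type 1 to 3 the value of -8.62 ± 0.86 missed the threshold (adjusted p = 0.0706). The H19 call was lost without dICR/dICR myotube 1 or 2, at an adjusted p of up to 0.412. Igf2 was at 2630.1 and 8294 CPM in dICR/dICR myotubes, against 1346, 1518, 2363, 2085 and 2548 CPM in wild-type myotubes. Both dICR/dICR values lay above all wild-type ones, but dICR/dICR myotube 1 stood close to wild-type 5 and myotube 2 far above it, and the log2 fold change of 1.47 ± 0.68 did not pass (adjusted p = 0.303, and 0.351 against wild-type 1 to 3). Igf2as, annotated on the opposite strand of Igf2, was at 18.9 and 21.6 CPM in dICR/dICR myotubes, against 8.69, 4.39, 6.20, 13.2 and 8.96 CPM in wild-type myotubes. The strand setting of the counting is not given, so reads of Igf2 and Igf2as cannot be told apart.

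Of 13 tested imprinted genes of distal chromosome 7, H19 was thus 1 lower gene and 0 were higher, with a list median of -0.78 against -0.06 over all genes. The growth inhibitor gene Cdkn1c was at 70.4 and 123 CPM in dICR/dICR myotubes, against 297, 1172, 1228, 407 and 777 CPM in wild-type myotubes. All 5 wild-type values exceeded both dICR/dICR values, with a log2 fold change of -3.0 ± 0.66 that missed the threshold over all libraries (edgeR adjusted p = 0.0683) and passed without wild-type myotube 2, at -2.84 ± 0.65 (adjusted p = 0.027). The mitochondrial ribosome gene Mrpl23, which also lies there, was at 38.4 and 35.9 CPM in dICR/dICR myotubes, against 47.7, 33.0, 37.3, 1.39 and 1.22 CPM in wild-type myotubes, where the 2 smaller libraries alone were low. Among 27 tested imprinted genes elsewhere 0 were called by edgeR (1 higher and 2 lower at an unadjusted p under 0.05, 1 lower by DESeq2), with a median of -0.28, and 1 was called higher without wild-type myotube 2. The shares of all tested genes were 9.14% higher and 7.63% lower at that p, and 4.17% lower by DESeq2. Without wild-type myotube 2, 4.59% were called higher.

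Hspb8, Dysf, Ano5 and Pgm5 were lower genes with known roles in muscle. Hspb8 encodes a small heat shock protein that works with Bag3 in chaperone-assisted autophagy of muscle proteins. It was at 1.94 and 8.62 CPM in dICR/dICR myotubes, against 556, 140.4, 801, 1507 and 494 CPM in wild-type myotubes. Even the lowest wild-type library, number 2, was far above both dICR/dICR libraries. The log2 fold change of Hspb8 was -7.05 ± 1.11 over all libraries (edgeR adjusted p = 0.0237) and -6.58 ± 1.10 against wild-type 1 to 3 (adjusted p = 0.13). It was the 1 called gene of 15 small heat shock proteins and chaperones, whose median was 0.02. Its partner Bag3 was at 40.2 and 68.6 CPM in dICR/dICR myotubes, against 29.2, 49.5, 87.2, 49.6 and 53.4 CPM in wild-type myotubes, and these groups overlapped. Hspa8, the constitutive Hsp70 chaperone, was at 3778 and 3896 CPM in dICR/dICR myotubes, against 8107, 4388, 4934, 269.8 and 267 CPM in wild-type myotubes, again with wild-type 4 and 5 alone low.

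Dysf, which encodes the membrane repair protein dysferlin, was at 46.8 and 115 CPM in dICR/dICR myotubes, against 482, 284, 746, 376 and 426 CPM in wild-type myotubes. Its log2 fold change was -2.52 ± 0.45, and -2.65 against wild-type 1 to 3 (edgeR adjusted p = 0.0357 and 0.188), and it was the 1 called gene of 22 for fusion and membrane repair. Ano5, a gene of the anoctamin family whose loss, like that of dysferlin, causes muscular dystrophy in people, was at 99.2 and 126 CPM in dICR/dICR myotubes, against 522, 239.5, 608, 527 and 464 CPM in wild-type myotubes, and also fell. For Ano5 the log2 fold change was -2.07 ± 0.41, and -2.03 against wild-type 1 to 3 (adjusted p = 0.0468 and 0.19). Pgm5, which encodes the adhesion-site protein aciculin, was at 36.2 and 50.6 CPM in dICR/dICR myotubes, against 333, 313, 462, 575 and 811 CPM in wild-type myotubes, a log2 fold change of -3.52 ± 0.62, and -3.11 against wild-type 1 to 3 (adjusted p = 0.035 and 0.0706). In all 3 genes every dICR/dICR library was below every wild-type library. The calls of Dysf, Ano5 and Pgm5 were lost without dICR/dICR myotube 1 (adjusted p = 0.609, 0.751 and 0.622). With 1 of the 13 libraries left out in turn, Dysf was called in 1 of 13 fits, Ano5 in 1 and Pgm5 in 8.

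Further lower genes were Bche, Ramp1, Wnt9a, Col5a2 and Adamtsl2. Bche, which encodes butyrylcholinesterase, was at 0.436 and 0.499 CPM in dICR/dICR myotubes, against 3.01, 8.18, 3.27, 7.85 and 9.17 CPM in wild-type myotubes, and was the 1 called gene of 13 of the neuromuscular junction. For Bche the log2 fold change was -3.72 ± 0.55, and -3.38 against wild-type 1 to 3 (edgeR adjusted p = 0.0181 and 0.171). Ramp1, a partner subunit of the receptor for calcitonin gene-related peptide, was at 2.09 and 0.665 CPM in dICR/dICR myotubes, against 15.5, 19.3, 25.1, 30.2 and 67.6 CPM in wild-type myotubes. For Ramp1 the log2 fold change was -4.50 ± 0.77, and -3.87 against wild-type 1 to 3 (adjusted p = 0.0333 and 0.123). Wnt9a, a Wnt ligand gene, was at 30.6 and 48.6 CPM in dICR/dICR myotubes, against 133, 194, 199.9, 94.2 and 175 CPM in wild-type myotubes. For Wnt9a the log2 fold change was -2.01 ± 0.39, and -2.17 against wild-type 1 to 3 (adjusted p = 0.0442 and 0.12). In each of these 3 genes every dICR/dICR value was below every wild-type value. Col5a2, a chain of the fibril-forming collagen V, was at 198 and 301 CPM in dICR/dICR myotubes, against 804, 853, 627, 749 and 819 CPM in wild-type myotubes, and the matrix-associated gene Adamtsl2 at 2.03 and 4.21 CPM against 29.4, 99.1, 50.5, 29.7 and 266 CPM. Both fell, with log2 fold changes of -1.63 ± 0.29 and -4.92 ± 0.97 (adjusted p = 0.035 and 0.0484), and of -1.63 and -4.28 against wild-type 1 to 3. The remaining genes of the 15 lowest were BC002163 and Tceal3, Zfp105, Fam213b, the glycine cleavage gene Gldc, the matrix gene Mamdc2, the microtubule-associated gene Mtus1 and Cdh13, which encodes T-cadherin, with log2 fold changes from -7.22 (BC002163) to -2.21 (Cdh13).

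**Figure D2:**
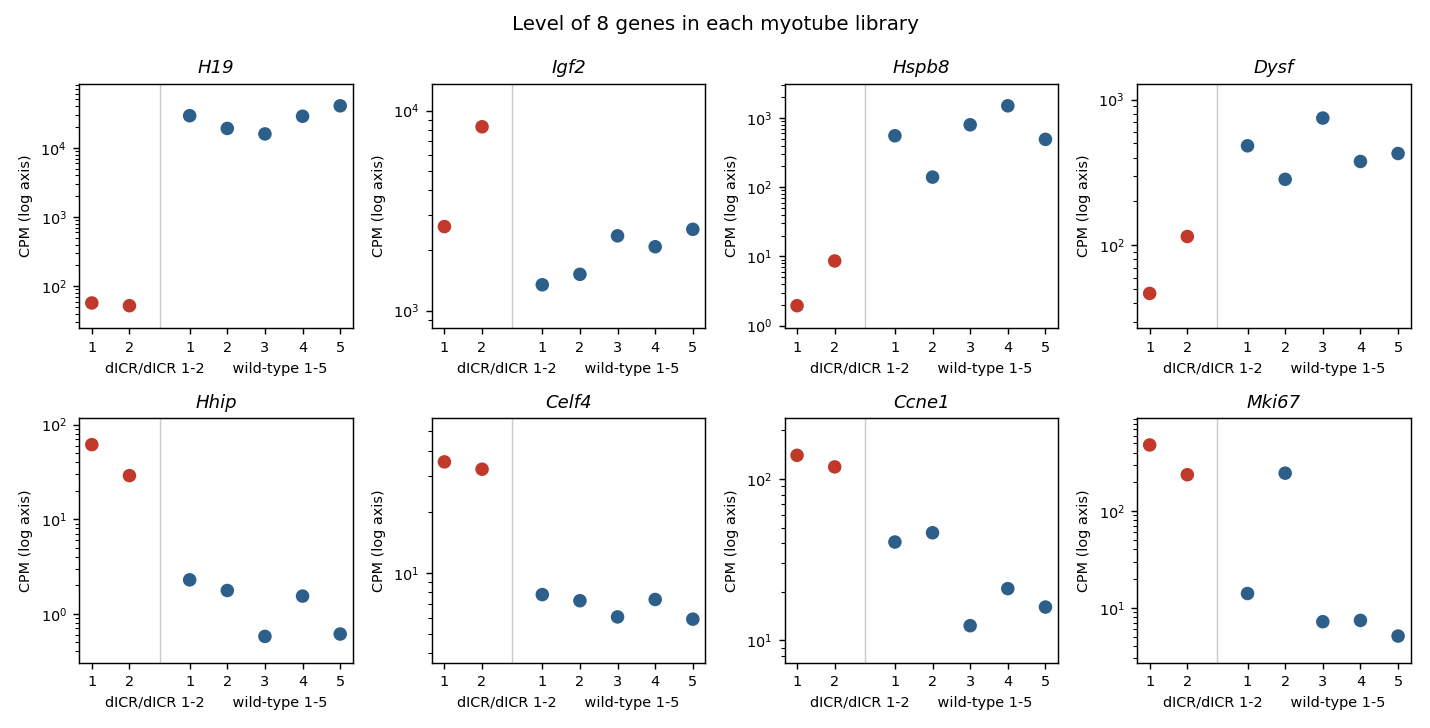
CPM on a log axis of 8 genes in each of the 7 myotube libraries, dICR/dICR in red on the left and wild type in blue on the right. H19, Hspb8 and Dysf are lower in both dICR/dICR libraries than in all 5 wild-type libraries, Hhip, Celf4 and Ccne1 are higher, and Mki67 in wild-type myotube 2 lies at the level of dICR/dICR.

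Among the higher genes, Celf4 had the smallest adjusted p. It encodes an RNA-binding regulator of splicing, known mostly from neurons, and was at 35.4 and 32.5 CPM in dICR/dICR myotubes, against 7.81, 7.29, 6.06, 7.39 and 5.91 CPM in wild-type myotubes. The log2 fold change was 2.30 ± 0.18 (edgeR adjusted p = 0.00036) over all libraries and 2.25 ± 0.31 (adjusted p = 0.0836) against wild-type 1 to 3. Hhip, which encodes a membrane protein that binds and restrains hedgehog ligands, was at 61.5 and 28.9 CPM in dICR/dICR myotubes, against 2.29, 1.76, 0.577, 1.54 and 0.611 CPM in wild-type myotubes. For Hhip the log2 fold change was 5.01 ± 0.66, and 4.87 against wild-type 1 to 3 (adjusted p = 0.0134 and 0.0836). It was the 1 called gene of 13 of the hedgehog pathway, whose targets Ptch1 (6.32 and 7.48 CPM in dICR/dICR myotubes, against 5.56, 5.87, 9.76, 4.46 and 2.65 CPM in wild-type myotubes) and Gli1 (0.318 CPM in wild-type myotube 2, its highest) did not pass. The hedgehog ligand gene Dhh reached at most 0.462 CPM, in wild-type myotube 4, and Ihh at most 0.308 CPM, in the same library.

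Further higher genes were Lpar2, Pde3b, Prkar2b, Itgb7 and Cd28. Lpar2, a receptor for lysophosphatidic acid, was at 8.90 and 6.37 CPM in dICR/dICR myotubes, against 0.876, 1.01, 0.962, 0.462 and 0.611 CPM in wild-type myotubes. For Lpar2 the log2 fold change was 3.20 ± 0.34, and 2.98 against wild-type 1 to 3 (edgeR adjusted p = 0.0049 and 0.0836). Pde3b, which degrades cyclic AMP downstream of insulin signalling, was at 83.5 and 32.7 CPM in dICR/dICR myotubes, against 6.93, 14.0, 4.18, 5.85 and 4.07 CPM in wild-type myotubes. For Pde3b the log2 fold change was 3.03 ± 0.48, and 2.77 against wild-type 1 to 3 (adjusted p = 0.0237 and 0.19). Prkar2b, a regulatory subunit of protein kinase A, was at 263 and 82.5 CPM in dICR/dICR myotubes, against 57.8, 45.8, 25.1, 33.6 and 22.4 CPM in wild-type myotubes. For Prkar2b the log2 fold change was 2.22 ± 0.39, and 1.99 against wild-type 1 to 3 (adjusted p = 0.035 and 0.259). In each of these dICR/dICR myotube 1 was the higher of the pair, and the lower still exceeded all wild-type values. Itgb7, an integrin subunit best known from lymphocytes, was at 15.6 and 8.34 CPM in dICR/dICR myotubes, against 0.457, 1.27, 0.890, 0.462 and 0.611 CPM in wild-type myotubes, and was the 1 called gene of 30 integrins. Of the 30 integrins 22 had negative log2 fold changes, with a median of -0.84, and -0.43 against wild-type 1 to 3. DESeq2 called 1 integrin higher and 3 lower over all libraries, against 2.61% and 4.17% of all genes. For Itgb7 the log2 fold change was 3.95 ± 0.68, and 3.74 against wild-type 1 to 3 (adjusted p = 0.0333 and 0.104). Cd28, a costimulatory receptor of T cells, was at 10.6 and 2.16 CPM in dICR/dICR myotubes, against 0.533, 1.01, 0.457, 0.770 and 0.611 CPM in wild-type myotubes, while the leukocyte gene Ptprc was at 0.0182 and 0.0475 CPM in dICR/dICR myotubes, against 0.0381, 0.202, 0.529, 0.462 and 0.204 CPM in wild-type myotubes. Of the 7 tested leukocyte markers 2 had positive and 5 negative log2 fold changes over all libraries. Both dICR/dICR libraries lay above all 5 wild-type ones in 2 of them and below in 1.

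The immunoglobulin-domain gene Igsf5 was at 6.81 and 3.37 CPM in dICR/dICR myotubes, against 0.0381, 0.145, 0.120, 0.154 and 0 CPM in wild-type myotubes, and Sigirr, a negative regulator of interleukin-1 receptor signalling, at 13.5 and 6.65 CPM against 0.343, 0.289, 0.0962, 0.462 and 0 CPM. Wild-type counts of both were near 0, so their log2 fold changes of 5.59 ± 0.66 and 5.36 ± 0.88 (edgeR adjusted p = 0.00729 and 0.0266) depend on few reads. Against wild-type 1 to 3 they were 5.55 and 5.37 (adjusted p = 0.072 and 0.074). The remaining genes of the 15 highest were the oxysterol-binding gene Osbp2, Kbtbd11, the neutral sphingomyelinase gene Smpd3, 1190002F15Rik, Tcerg1l, Them6, the calcium/calmodulin kinase gene Camk1d and the zinc finger gene Tshz1, with log2 fold changes from 2.66 (Tshz1) to 4.11 (Osbp2). Outside the 15, the glutathione transferase gene Gsta2 was at 2.76 and 1.95 CPM in dICR/dICR myotubes, against 0, 0.0578, 0.0481, 0 and 0 CPM in wild-type myotubes, and its near-copy Gm3776 at 3.34 and 2.92 CPM against 0, 0.0289, 0.0481, 0 and 0 CPM, a split between copies that is uncertain. Ampd3, which encodes an AMP deaminase, was at 38.7 and 14.9 CPM in dICR/dICR myotubes, against 2.32, 4.63, 4.98, 8.16 and 5.50 CPM in wild-type myotubes, and was the 1 called gene of 22 of muscle energy metabolism. Of these 22 genes 15 had negative log2 fold changes, with a median of -0.68 over all libraries and -0.02 against wild-type 1 to 3. For Ampd3 the log2 fold change was 2.41 ± 0.43, and 2.73 against wild-type 1 to 3 (adjusted p = 0.035 and 0.171). Snhg1, the 1 called gene of 12 noncoding host genes of small nucleolar RNAs, was at 181 and 163 CPM in dICR/dICR myotubes, against 47.6, 40.4, 53.3, 43.9 and 22.2 CPM in wild-type myotubes. For Snhg1 the log2 fold change was 2.05 ± 0.34, and 1.85 against wild-type 1 to 3 (adjusted p = 0.0266 and 0.0786).

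**Figure D3:**
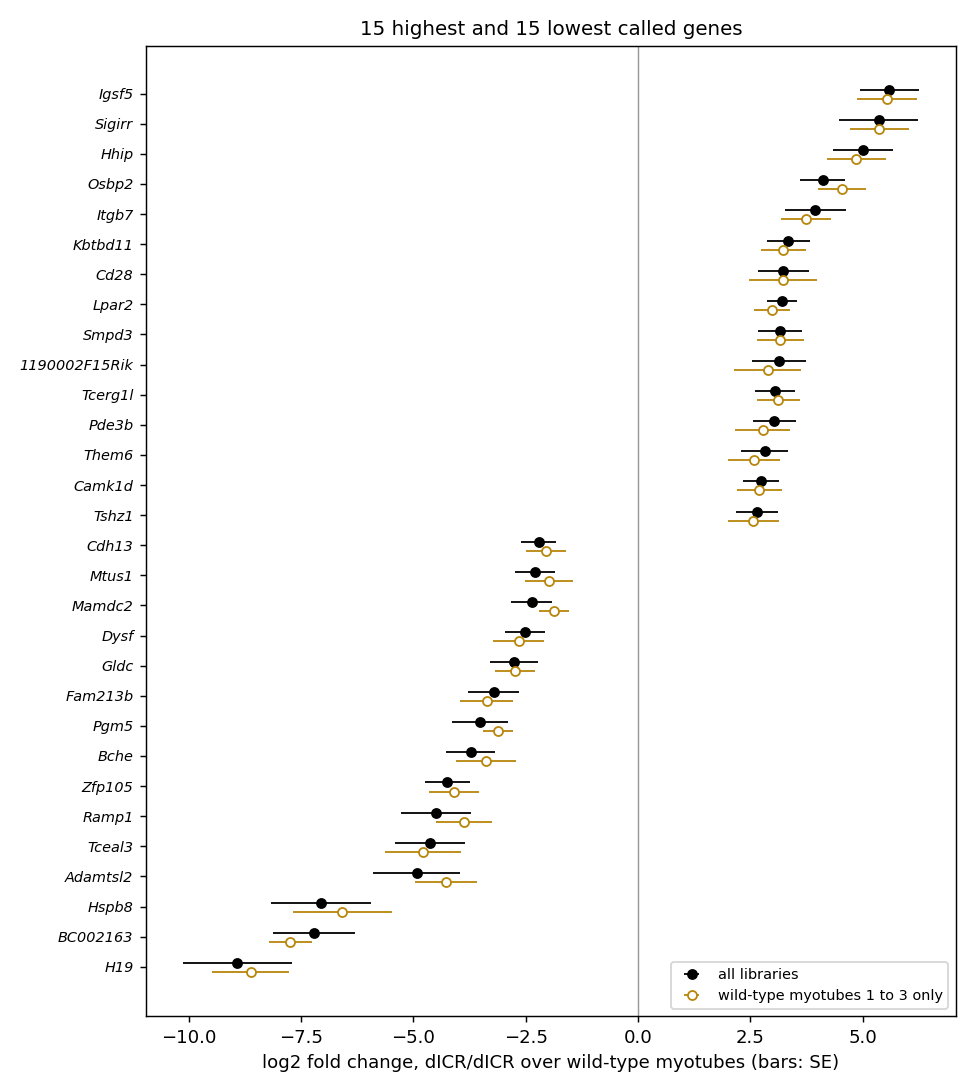
Log2 fold change with its standard error of the 15 highest and 15 lowest called genes, over all libraries (filled) and against wild-type myotubes 1 to 3 only (open). Each of the 30 has the same sign in both comparisons, from -8.92 (H19) to 5.59 (Igsf5) over all libraries.

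For genes of cell division the number of calls turned on 1 wild-type library. Ccne1, the cyclin E gene that drives entry into S phase, was at 140.2 and 119 CPM in dICR/dICR myotubes, against 40.7, 46.4, 12.3, 20.9 and 16.1 CPM in wild-type myotubes, a rise of 2.24 ± 0.40 on the log2 scale, and of 1.95 against wild-type 1 to 3 (edgeR adjusted p = 0.035 and 0.259). It was the 1 called gene of 16 G1/S cyclins, kinases and E2F factors. Other called genes with a part in S phase or division, outside the fixed lists and picked after their values were seen, were the condensin gene Ncapd2, at 214 and 135 CPM in dICR/dICR myotubes, against 25.3, 69.9, 14.1, 26.8 and 22.4 CPM in wild-type myotubes, the DNA polymerase delta gene Pold3, at 37.3 and 26.0 CPM against 12, 15.7, 7.91, 11.9 and 13.6 CPM, and the deoxycytidylate deaminase gene Dctd, at 36.1 and 25.5 CPM against 6.74, 9.89, 3.68, 3.23 and 3.87 CPM. Gtse1, a G2 and S phase protein that restrains p53 and was listed here among p53 targets, was at 45.1 and 47.1 CPM in dICR/dICR myotubes, against 9.14, 22.6, 8.51, 15.1 and 10.6 CPM in wild-type myotubes. In each of these 5 genes wild-type myotube 2 was the highest wild-type library and still lay below both dICR/dICR libraries. With 1 of the 13 libraries left out in turn, Ccne1 was called in 2 of 13 fits, Ncapd2, Pold3 and Gtse1 in 1 each and Dctd in 8.

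The main lists of the cell cycle had positive log2 fold changes almost throughout, with few calls. All 33 DNA replication genes had a positive log2 fold change, with a median of 2.13 over all libraries and 1.72 against wild-type 1 to 3, and 0 were called in either by edgeR. All 30 mitosis genes were positive, with medians of 2.43 and 1.87 and 0 called. Of 62 tested clustered histone genes 55 were positive, with medians of 2.34 and 1.82 and 0 called, in a gene family of near-identical copies. Without dICR/dICR myotube 1, the medians against wild-type 1 to 3 were lower, at 0.99 for replication, 1.21 for mitosis and 0.85 for histones. At an unadjusted p under 0.05, 31 replication, 26 mitosis and 35 histone genes were higher over all libraries, and 14, 1 and 6 against wild-type 1 to 3, and DESeq2 called 15, 3 and 2 higher over all libraries. Of all tested genes, 9.14% were higher and 7.63% lower at that p over all libraries, 6.24% and 5.93% against wild-type 1 to 3, and DESeq2 called 2.61% higher and 4.17% lower over all libraries. The median over all genes was -0.06 and -0.02 in the 2 comparisons. Both dICR/dICR libraries lay above all 5 wild-type ones in 22 of 33 replication genes, 12 of 30 mitosis genes and 11 of 16 G1/S genes, against 10.5% of all genes.

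Wild-type myotube 2 lay near the dICR/dICR libraries in these lists. The mean log2 CPM of the mitosis list was 6.86 and 5.86 in dICR/dICR myotubes, against 3.25, 5.92, 1.78, 2.29 and 1.63 in wild-type myotubes 1 to 5, so wild-type 2 lay just above the lower and well below the higher of the 2 dICR/dICR libraries. Mki67, the gene of the proliferation antigen Ki-67, was at 482 and 237 CPM in dICR/dICR myotubes, against 14.0, 246, 7.17, 7.39 and 5.09 CPM in wild-type myotubes. The DNA helicase gene Mcm5 was at 152 and 69.3 CPM in dICR/dICR myotubes, against 11.5, 61.2, 2.72, 9.08 and 4.28 CPM in wild-type myotubes. Without wild-type myotube 2, 30 of 30 mitosis genes, 27 of 33 replication genes, 43 of 62 tested clustered histone genes and 9 of 16 G1/S genes were called higher and none lower, where 4.59% of all genes were called higher. The medians were then 3.99 for mitosis and 2.96 for replication, and Mki67 stood at 5.37 ± 0.47 (edgeR adjusted p = 0.000525). Against wild-type 1 and 3 alone, 29 of 30 mitosis and 24 of 33 replication genes were called higher (3.84% of all genes, with 1.46% called lower and 5.30% in all). Wild-type myotube 2 had the highest wild-type levels in these lists, so leaving it out raises their log2 fold changes by construction. These calls, and those of single genes given without this library, are no evidence apart from the levels themselves. Wild-type myotube 2 was also the library with high interferon response genes and the one with the most genes counted, 20313 against 16208 to 17908 in the other 6 myotube libraries. The part of that difference in the cell-cycle levels was not tested. Of the 711 genes called higher without it, 15.3% belonged to the 4 lists, and 77.3% of the 141 tested genes of these lists were among the 711.

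**Figure D4:**
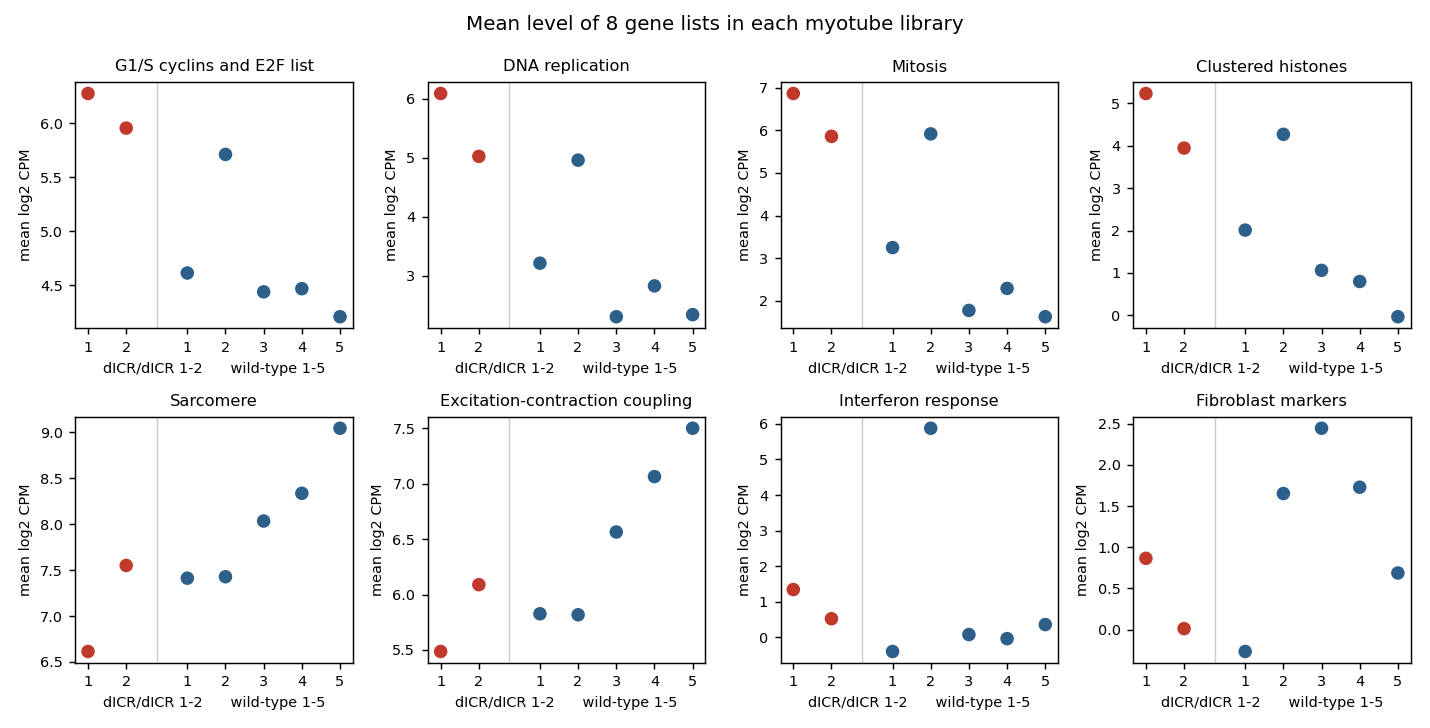
Mean log2 CPM of 8 gene lists in each of the 7 myotube libraries, dICR/dICR in red on the left and wild type in blue on the right. In the mitosis panel wild-type myotube 2 (5.92) lies beside the lower of the dICR/dICR libraries (6.86 and 5.86), and the interferon response panel shows the same library at 5.88 with the other 6 at 1.34 or less.

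Promoters of replication and mitosis genes are known to carry E2F and CHR sites, and 4 are shown to place these letters beside the levels, a pair from replication and a pair from mitosis, as members with several matches. Sequences are from RefSeq on build GRCm38.p6, 250 bases before to 50 after the annotated start, 5′ to 3′ on the gene's strand. The 4 lie at chr8:75109259-75109558 (Mcm5, plus strand), chr1:128359656-128359955 (Mcm6, minus strand), chr10:69352863-69353162 (Cdk1, minus strand) and chr9:70421505-70421804 (Ccnb2, minus strand). Capitals mark matches to an E2F-type site (TTTCGCGC, TTTGGCGC, TTTCCCGC or TTTGCCGC, either strand, overlapping matches joined) in Mcm5 and Mcm6, and to the CHR (TTTGAA, either strand) in Cdk1 and Ccnb2. The Cdk1 window also holds 1 E2F-type match, left in lower case.
Mcm5: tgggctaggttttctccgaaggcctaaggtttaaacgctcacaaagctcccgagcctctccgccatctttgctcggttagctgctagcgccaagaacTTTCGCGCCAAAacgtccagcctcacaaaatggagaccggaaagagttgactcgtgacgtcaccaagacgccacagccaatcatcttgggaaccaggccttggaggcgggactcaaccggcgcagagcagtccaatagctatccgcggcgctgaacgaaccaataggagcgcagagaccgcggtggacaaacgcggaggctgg
Mcm6: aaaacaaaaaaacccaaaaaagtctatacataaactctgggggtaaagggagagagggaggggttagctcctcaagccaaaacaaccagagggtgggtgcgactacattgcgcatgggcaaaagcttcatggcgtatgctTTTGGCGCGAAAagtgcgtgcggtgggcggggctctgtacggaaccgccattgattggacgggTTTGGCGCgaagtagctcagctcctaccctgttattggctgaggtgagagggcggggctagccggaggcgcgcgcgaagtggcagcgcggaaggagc
Cdk1: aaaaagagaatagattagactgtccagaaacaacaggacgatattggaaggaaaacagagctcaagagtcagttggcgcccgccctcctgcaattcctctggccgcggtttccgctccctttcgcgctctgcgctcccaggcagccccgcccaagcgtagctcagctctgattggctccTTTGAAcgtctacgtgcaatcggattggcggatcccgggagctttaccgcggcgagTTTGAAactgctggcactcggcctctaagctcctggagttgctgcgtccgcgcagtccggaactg
Ccnb2: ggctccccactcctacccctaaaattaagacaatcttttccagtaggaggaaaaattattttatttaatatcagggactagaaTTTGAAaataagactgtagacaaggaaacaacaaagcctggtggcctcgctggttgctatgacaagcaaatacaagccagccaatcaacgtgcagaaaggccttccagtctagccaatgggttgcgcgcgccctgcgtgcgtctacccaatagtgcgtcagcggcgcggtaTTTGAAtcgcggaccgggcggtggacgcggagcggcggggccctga

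Mcm6, a subunit of the same replication helicase as Mcm5, was at 199.9 and 65 CPM in dICR/dICR myotubes, against 11.3, 76.8, 3.25, 9.54 and 4.48 CPM in wild-type myotubes. Cdk1, the kinase that drives entry into mitosis, was at 208 and 89.2 CPM in dICR/dICR myotubes, against 15.2, 74.1, 5.58, 10.5 and 5.30 CPM in wild-type myotubes, and its cyclin Ccnb2 at 103 and 27.2 CPM against 5.30, 46.8, 3.82, 3.39 and 4.69 CPM. In all 4 promoter examples wild-type myotube 2 lay far above the other wild-type libraries, and in Mcm6 and Ccnb2 also above dICR/dICR myotube 2. A gene with several start sites was counted once, with a match in any of its windows. Promoter windows were at hand for 26 of the 33 replication genes and 25 of the 30 mitosis genes. The E2F-type site was in 12 of the 26 replication genes (46.2%), 1 of the 25 mitosis genes (4%), which is Cdk1, and 2.6% of all 27025 genes with a window. The CHR was in 4 of the 26 replication genes (15.4%), 19 of the 25 mitosis genes (76%) and 20.2% of all genes. Of the 12 G1/S genes with a window, 5 held the E2F-type site (41.7%) and 4 the CHR (33.3%). Among tested genes with a window the shares were 4.12% and 14.4%, so the E2F-type share of mitosis genes lay at that of tested genes. Among the 92 called genes, windows were matched for 37 of the 55 higher and 23 of the 37 lower genes. The E2F-type site was in 5 of the higher (13.5%) and 1 of the lower genes (4.35%), against 4.12% of tested genes with a window. The CHR was in 3 of the higher (8.11%) and 3 of the lower genes (13%), against 14.4% of tested genes with a window. A match describes letters in the window and is not shown to be a bound site.

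**Figure D5:**
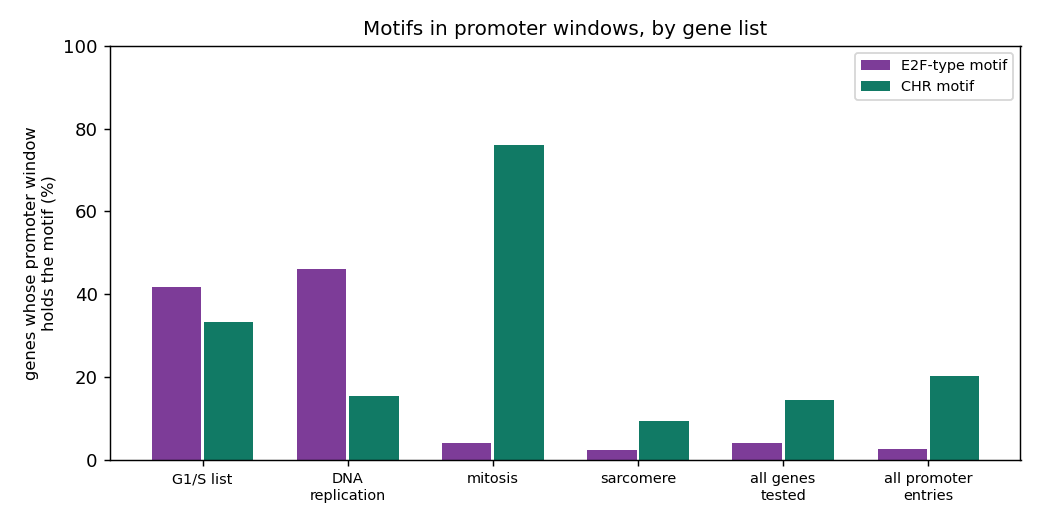
Share of genes, in percent, with an E2F-type (purple) or a CHR (green) match in a promoter window of 300 bases, for 4 gene lists, all tested genes and all genes with a window. The E2F-type bar stands out for DNA replication (46.2%) and the G1/S list (41.7%) and the CHR bar for mitosis (76%). The shares were 2.6% and 20.2% of all genes, and 4.12% and 14.4% of tested genes with a window.

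Brakes of the cell cycle gave no call in the main comparisons. Of 10 CDK inhibitors and pocket proteins 0 were called by edgeR (2 higher and 1 lower at an unadjusted p under 0.05, 0 and 1 by DESeq2), with 7 positive and a median of 0.26. Cdkn1a, the p21 gene induced at muscle differentiation, was at 331 and 768 CPM in dICR/dICR myotubes, against 842, 794, 1201, 408 and 522 CPM in wild-type myotubes, and Rb1, the retinoblastoma gene, at 150.3 and 247 CPM against 256, 245, 523, 221 and 192 CPM, both with overlapping groups. Rbl1, the p107 pocket protein gene and itself an E2F target, was at 47.1 and 24.4 CPM in dICR/dICR myotubes, against 5.52, 30.2, 3.34, 6.31 and 5.70 CPM in wild-type myotubes, and was called higher without wild-type myotube 2 (2.76 ± 0.40, edgeR adjusted p = 0.00226). Of 29 p53 targets Gtse1 and 9630033F20Rik (Tigar, a regulator of glycolysis) were called higher and 0 lower by edgeR, while 20 of the 29 had negative values and the list median was -0.35. At an unadjusted p under 0.05, 3 were higher and 5 lower, and DESeq2 called 2 higher and 5 lower. The shares of all tested genes were 9.14% higher and 7.63% lower at that p, and 2.61% and 4.17% by DESeq2. Perp, a p53 target of cell adhesion, was at 0.0545 and 0.285 CPM in dICR/dICR myotubes, against 3.85, 4.16, 6.28, 2.31 and 0.407 CPM in wild-type myotubes, and Pmaip1, which encodes the death protein Noxa, at 30.1 and 65.7 CPM against 316, 215, 214, 143 and 218 CPM; neither passed (adjusted p = 0.165 and 0.0971).

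Genes of the contractile apparatus had mostly negative log2 fold changes, and none passed in the main comparisons. Of 55 sarcomere genes 53 had a negative log2 fold change, with a median of -1.14 over all libraries and -0.79 against wild-type 1 to 3, and 0 were called by edgeR in either comparison. Over all libraries 13 of the 55 were lower at an unadjusted p under 0.05, against 7.63% of all genes, and DESeq2 called 6 lower, against 4.17%. Both dICR/dICR libraries lay below all 5 wild-type ones in 14 of the 55, against 8.76% of all genes. The mean log2 CPM of the list was 6.61 and 7.55 in dICR/dICR myotubes, against 7.41, 7.43, 8.04, 8.34 and 9.05 in wild-type myotubes. Wild-type 4 and 5, the smaller libraries, were the highest, and dICR/dICR myotube 2 lay within the range of wild-type 1 to 3. The list median was -0.71 without dICR/dICR myotube 1 and -1.76 without dICR/dICR myotube 2.

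Ankrd2, a stretch-responsive ankyrin repeat protein of the titin I-band, was at 12.3 and 37.1 CPM in dICR/dICR myotubes, against 1427, 599, 719, 270 and 299 CPM in wild-type myotubes. The groups lay far apart, and the log2 fold change of -4.75 ± 1.02 missed the threshold (edgeR adjusted p = 0.0628) but passed without wild-type myotube 2 (-4.80 ± 1.07, adjusted p = 0.0246). Acta1, the skeletal actin gene, was at 2261 and 4094 CPM in dICR/dICR myotubes, against 8451, 6551, 8608, 8310.3 and 10992 CPM in wild-type myotubes, without overlap. For Acta1 the log2 fold change was -1.43 ± 0.59, and -1.32 against wild-type 1 to 3 (adjusted p = 0.256 and 0.382). Actn3, the fast-fibre actinin gene, depended on the libraries chosen, at 391 and 365 CPM in dICR/dICR myotubes, against 34.3, 21.3, 68.0, 1004 and 1303 CPM in wild-type myotubes. Its log2 fold change was -0.36 ± 1.60 over all libraries and 3.18 ± 0.47 against wild-type 1 to 3 (adjusted p = 0.926 and 0.104), with opposite signs. Myh8, the perinatal myosin gene, was likewise at 373 and 845 CPM in dICR/dICR myotubes, against 108, 535, 1120.3, 3363 and 3805 CPM in wild-type myotubes, with log2 fold changes of -1.55 and 0.03.

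Of 22 excitation-contraction coupling genes 21 were negative and 0 were called by edgeR (6 lower and 1 higher at an unadjusted p under 0.05, 2 and 1 by DESeq2), with medians of -0.93 and -0.46. The shares of all tested genes were 7.63% lower and 9.14% higher at that p, and 4.17% and 2.61% by DESeq2. Cacng1, the gamma subunit of the muscle calcium channel, was at 36 and 82.4 CPM in dICR/dICR myotubes, against 202, 219.6, 289.9, 273 and 301 CPM in wild-type myotubes. For Cacng1 the log2 fold change was -2.12 ± 0.54, and -2.02 against wild-type 1 to 3 (edgeR adjusted p = 0.0945 and 0.179). The exception with a positive value was Pln, the calcium pump regulator phospholamban, at 19.3 and 17.5 CPM in dICR/dICR myotubes, against 9.52, 5.15, 10.4, 3.69 and 3.87 CPM in wild-type myotubes (adjusted p = 0.113). In the dystrophin-glycoprotein complex 0 of 15 genes were called by edgeR (2 higher and 4 lower at an unadjusted p under 0.05, 1 and 2 by DESeq2). Of the 15, 4 were positive and 11 negative, with medians of -0.62 and -0.48. Both dICR/dICR libraries lay above all 5 wild-type ones in 3 and below in 5, against 10.5% and 8.76% of all genes. Without wild-type myotube 2, 2 were called higher and 2 lower, against 4.59% and 1.34% of all genes. The gene Dmd was at 57.8 and 118 CPM in dICR/dICR myotubes, against 245, 144, 389, 262 and 351 CPM in wild-type myotubes, and Sgcd, a sarcoglycan gene, at 1.11 and 3.52 CPM against 10.0, 14.0, 14.1, 31.9 and 50.9 CPM, neither with overlap (adjusted p = 0.222 and 0.0823).

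Regulators of myogenesis varied by gene. Of 12 myogenic transcription factors 0 were called by edgeR or DESeq2 (2 higher and 1 lower at an unadjusted p under 0.05) and 7 were positive, with a median of 0.20. The shares of all tested genes were 9.14% higher and 7.63% lower at that p, and 2.61% and 4.17% by DESeq2. Beside Myog, the MEF2 factor gene Mef2c was at 349.5 and 655 CPM in dICR/dICR myotubes, against 1097, 847, 1056, 1354 and 2089.6 CPM in wild-type myotubes, below all of them. For Mef2c the log2 fold change was -1.36 ± 0.54, and -1.01 against wild-type 1 to 3 (edgeR adjusted p = 0.243 and 0.361). Myod1, the determination factor gene, was at 509 and 765 CPM in dICR/dICR myotubes, against 771, 728, 1349, 528 and 253 CPM in wild-type myotubes, with overlap. Of 13 satellite cell genes 0 were called by edgeR (2 higher and 2 lower at an unadjusted p under 0.05, 1 and 2 by DESeq2), and the stem cell factor gene Pax7 was at 38.3 and 47.8 CPM in dICR/dICR myotubes, against 16.3, 46.7, 19.7, 16.3 and 14.7 CPM in wild-type myotubes, where wild-type 2 again lay at the dICR/dICR level. Pax7 was called higher without that library (1.33 ± 0.28, adjusted p = 0.0191), as was the growth factor receptor gene Met (1.39 ± 0.35, adjusted p = 0.0425), whereas Megf10 was called lower (-1.73 ± 0.42, adjusted p = 0.0344). The fusion gene Tmem8c, which encodes myomaker, was at 93.8 and 311 CPM in dICR/dICR myotubes, against 90.8, 209, 429, 354 and 373 CPM in wild-type myotubes, and did not pass (adjusted p = 0.762).

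The insulin-like growth factor pathway, into which Igf2 signals, had 0 of 17 genes called by edgeR (6 higher and 1 lower at an unadjusted p under 0.05, 1 and 1 by DESeq2), with 9 positive and medians of 0.10 and 0.59. Igf1r, the receptor that transmits the IGF2 signal, was at 103 and 265 CPM in dICR/dICR myotubes, against 202, 185, 249.5, 167 and 152 CPM in wild-type myotubes, and Igf2r, which clears IGF2, at 988 and 662 CPM against 892, 672, 819, 916 and 1307 CPM, both with overlap. Igfbp5, the binding protein that muscle cells secrete as they differentiate, was at 933 and 838 CPM in dICR/dICR myotubes, against 144, 419, 125, 159.6 and 247 CPM in wild-type myotubes. Each dICR/dICR value was at least 838 CPM and each wild-type value at most 419 CPM, and the log2 fold change of 2.02 ± 0.60 missed the threshold with wild-type myotube 2 and passed without it (edgeR adjusted p = 0.135 with it and 0.0406 without it). Irs2, an adaptor of the insulin and IGF receptors, was at 12.6 and 26.9 CPM in dICR/dICR myotubes, against 2.86, 15.6, 6.61, 8.16 and 4.69 CPM in wild-type myotubes, with wild-type 2 inside the dICR/dICR range, and was called higher without that library (1.8 ± 0.43, adjusted p = 0.0327). Of 28 genes of AKT and mTOR signalling 0 were called (median -0.08), of 26 genes of ERK output 0 (median -0.27), and of 19 FoxO and atrophy genes 0 (median 0.11). At an unadjusted p under 0.05 these held 4, 2 and 4 genes, and DESeq2 called 3, 1 and 0. The shares of all tested genes were 9.14% higher and 7.63% lower at that p, and 2.61% and 4.17% by DESeq2.

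H19 RNA is known to bind let-7 microRNAs, so known let-7 targets were listed. Of 19 tested targets 15 had positive values and 0 were called by edgeR (7 higher at an unadjusted p under 0.05, 2 by DESeq2), with medians of 0.81 over all libraries and 0.57 against wild-type 1 to 3. Of all tested genes 9.14% were higher at that p, and 2.61% by DESeq2. In 9 of the 19 both dICR/dICR libraries lay above all 5 wild-type ones, against 10.5% of all genes. Hmga2, a chromatin protein gene of proliferating and fetal cells, was at 80.9 and 80.1 CPM in dICR/dICR myotubes, against 19.8, 36.7, 25.1, 14.0 and 11.2 CPM in wild-type myotubes. For Hmga2 the log2 fold change was 1.91 ± 0.76, and 1.54 against wild-type 1 to 3 (edgeR adjusted p = 0.241 and 0.185). Igf2bp1, an RNA-binding protein gene, was at 146 and 144 CPM in dICR/dICR myotubes, against 107, 43.4, 74.3, 60.8 and 50.3 CPM in wild-type myotubes. For Igf2bp1 the log2 fold change was 1.11 ± 0.34, and 0.94 against wild-type 1 to 3 (adjusted p = 0.143 and 0.386). Both separate the genotypes without passing. The kinase gene Cdk6 was called higher without wild-type myotube 2 (1.74 ± 0.19, adjusted p = 0.000835), and is also 1 of the 16 G1/S genes. Dicer1, which cuts microRNA precursors, was at 111 and 144 CPM in dICR/dICR myotubes, against 144, 137, 127, 99.4 and 136 CPM in wild-type myotubes, with overlap.

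In the other signalling and matrix lists calls were few. Of 39 Wnt genes Wnt9a was the 1 lower gene (median -0.34), and of 44 collagens Col5a2 was the 1 lower gene (median -1.13). Against wild-type 1 to 3 the medians were -0.37 and -0.70. Collagen sums were 1617 and 1461 CPM in dICR/dICR myotubes, against 1978, 4520, 2251, 2576 and 3130 CPM in wild-type myotubes. Against wild-type 1 and 3 alone the collagen median was -0.07. There edgeR called 2 of 35 collagens higher and 2 lower, against 3.84% and 1.46% of all genes. The noncanonical ligand gene Wnt5a was at 0.618 and 0.879 CPM in dICR/dICR myotubes, against 1.30, 5.58, 12.7, 4.93 and 9.78 CPM in wild-type myotubes, and did not pass (edgeR adjusted p = 0.0843). None of 41 genes of transforming growth factor beta and BMP (median -0.25), 19 of Notch (0.10), 12 of the EGF family (-0.61) or 22 of FGF, Met and PDGF (-0.78) was called by edgeR over all libraries. Of all tested genes, 9.14% were higher and 7.63% lower at an unadjusted p under 0.05, and DESeq2 called 2.61% higher and 4.17% lower. At an unadjusted p under 0.05, 2 genes of transforming growth factor beta and BMP were higher and 6 lower, and DESeq2 called 4, all lower. Of FGF, Met and PDGF 1 gene was higher and 7 were lower at that p, and DESeq2 called 1 higher and 3 lower. Notch held 2 higher and 2 lower genes at that p and the EGF family 3 lower, and DESeq2 called 1 lower in each. Of 89 respiratory chain genes 66 had positive values, where 46.8% of all genes did, with a median of 0.24 over all libraries and 0.14 against wild-type 1 to 3. None was called by edgeR or DESeq2, and 6 were higher at an unadjusted p under 0.05. Of 25 genes of ribosome biogenesis 0 were called by edgeR (2 higher and 1 lower at that p, 1 lower by DESeq2; median 0.12). Of 17 genes of the integrated stress response 0 were called by edgeR or DESeq2, with none at that p and a median of -0.09. The interferon response list had 17 of 17 negative values and a median of -2.75, which became 0.95 without wild-type myotube 2, with 0 called by edgeR either way (1 at an unadjusted p under 0.05 over all libraries, 0 by DESeq2).

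The myoblast libraries are other samples of the same genotypes, of which both dICR/dICR libraries were among the smaller ones. Of the 92 genes, 80 (87%) had the same sign of the genotype effect in myoblasts as in myotubes, 45 of the 55 higher and 35 of the 37 lower genes, against 54.5% of all tested genes. Levels in dICR/dICR myotubes were also set beside the larger wild-type libraries. They lay closer to wild-type myoblasts than to wild-type myotubes in 53 of the 55 higher and 29 of the 37 lower genes. In 54 of the 55 and 29 of the 37, wild-type myoblasts differed from wild-type myotubes in the same direction. These genes were called because dICR/dICR and wild-type myotubes differ, so a distance from wild-type myotubes was set by the choice of genes. The share among all genes was not computed, so these counts cannot show a stage. The part of the stage reached in these calls was not tested. In myoblasts 5 genes were called (0.0302%), and 4 of them, Akip1, Igsf5, Mecom and Mtus1, are among the 92 with the same direction. Igsf5 was at 5.78 and 22.5 CPM in dICR/dICR myoblasts, against 0.242, 0.233, 0.493 and 0.613 CPM in wild-type myoblasts, so that it was close to 0 in every wild-type library of either stage (5.33 ± 0.67 in myoblasts, edgeR adjusted p = 0.0459). Mtus1 was at 1.25 and 1.17 CPM in dICR/dICR myoblasts, against 16.4, 13.4, 15.9 and 14.2 CPM in wild-type myoblasts (-3.62 ± 0.51, adjusted p = 0.0459). Hhip was at 75.0 and 91.5 CPM in dICR/dICR myoblasts, against 96.9, 81.2, 21.5 and 18.1 CPM in wild-type myoblasts, and Hspb8 at 5.39 and 3.65 CPM against 124, 123, 283 and 260 CPM, neither called (adjusted p = 0.725 and 0.0991). H19 was at 53.8 and 71.5 CPM in dICR/dICR myoblasts, against 2607, 2345, 18489 and 17485 CPM in wild-type myoblasts, lower in each dICR/dICR library than in any wild-type one (adjusted p = 0.0562). In edgeR's test of the difference between the genotype effects of the 2 stages 0 genes passed, and 1643 had an unadjusted p under 0.05.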

How the data were processed

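The labels describe RNA-seq of ribosome-depleted total RNA from 13 libraries, made on either of 2 sequencing platforms without a statement of which library was run on which. Raw counts of 23366 genes were deposited by the authors without normalization, and per the submitters' processing notes TopHat2, HTSeq and build mm9 were used. Their settings, strand included, are unknown. As deposited, 27 gene names had turned into dates, and no result rests on them.

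Counts were tested with edgeR 4.0.16 in R 4.3.3 (quasi-likelihood F test, two-sided, TMM scaling, filterByExpr with a minimum count of 10 and a minimum total count of 15, Benjamini-Hochberg adjusted p under 0.05 over all genes tested). The main comparison fitted 13 libraries with 4 group means, and the other fitted dICR/dICR myotubes 1 and 2 and wild-type myotubes 1 to 3 alone. DESeq2 1.42.0, other scalings and filters, a replicate block, a depth term and leaving out each library were alternatives. Only the edgeR fits of the 2 main comparisons were tested on simulated counts. These had the same dispersion for every gene and no library that stood apart, unlike the data. CPM are TMM-scaled, and list means use log2 CPM with a prior count of 2. Total counts ran between 5.31 M and 56.44 M, which sets the precision of low genes in the smaller libraries. No pair of replicates agreed within counting noise (chi-square per degree of freedom of at least 4.67).

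The members and gene lists were chosen with earlier results of these data known, so no list is independent evidence. The rule for named genes (H19, Igf2, the 15 highest and 15 lowest genes called in both comparisons with a mean of at least 5 CPM in the higher group, and called members of lists) gave 1 gene called in both, so the 15 highest and lowest of 72 genes called over all libraries, not overlapping wild type and past 5 CPM, were taken, a rule chosen after their values were seen, as were the named genes outside these. Motifs were searched in RefSeq promoter windows of build GRCm38.p6 matched by symbol, and no mm9 coordinate is printed. Values of some list members are not reported here. Of the 23366 names, 23207 matched a RefSeq symbol or synonym.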

Additional observations from a re-analysis of the deposited data

Results flagged for a closer look

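Among the 5 wild-type myotubes, 1 library stood apart from the other 4 by Dixon's criterion in 24 of 111 genes and 7 of 46 gene lists examined. By chance the criterion marks about 1 in 20 groups, a rate that does not carry over to these counts, since the genes were those named in the text and the interferon response genes, which were high together in 1 library. Wild-type myotube 2 accounts for most of these, and 15 of them are interferon response genes. It held the ubiquitin-like modifier gene Isg15 at 193 CPM, the antiviral effector genes Ifit1 at 152 CPM, Ifit3 at 25.9 CPM, Oasl2 at 75.3 CPM, Rsad2 at 23.1 CPM, Bst2 at 155 CPM, Mx1 at 1.27 CPM, Mx2 at 39.6 CPM and Ifi44 at 47.2 CPM. The RNA sensor genes Ddx58 and Ifih1 were at 157 CPM and 78.8 CPM there, and the interferon signalling genes Stat2 at 50.4 CPM, Irf7 at 82.9 CPM, Irf9 at 79.7 CPM and Usp18 at 86.4 CPM. The interferon response list averaged 5.88 log2 CPM in that library.

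The same library was also the outlying one for 3 other lists and 5 named genes. It averaged 5.71 log2 CPM for G1/S cyclins, kinases and E2F factors, 5.77 log2 CPM for CDK inhibitors and pocket proteins and 4.30 log2 CPM for Notch genes, each the highest of the wild-type myotubes. Ncapd2 was at 69.9 CPM, the DNA repair gene Fancg at 2.78 CPM, the kinase gene Pask at 7.14 CPM, Pde3b at 14.0 CPM and Them6 at 2.28 CPM in wild-type myotube 2. Whether these values share a source with the interferon genes was not tested.

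In the other wild-type myotubes, Tceal3 was at 24.4 CPM in number 3, Ramp1 at 67.6 CPM and Osbp2 at 4.69 CPM in number 5, and Pir at 0.923 CPM in number 4. Wild-type myotube 1 averaged 1.49 log2 CPM for Wnt genes, 2.32 log2 CPM for integrins and 0.25 log2 CPM for smooth muscle and pericyte markers, each the lowest of the 5.

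For 4 called genes the genotype effect had the opposite direction in myoblasts, with every dICR/dICR myoblast library on the other side of wild type. The log2 fold changes in myoblasts were 0.34 for Mafk, -0.28 for Prkar2b, -0.87 for Tmem181b-ps and -0.16 for Trerf1. The difference between the stages was tested for all genes in edgeR's model and passed for 0 of them, with 1643 at an unadjusted p under 0.05.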

How the results depend on the processing

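Over all libraries, where 92 genes were called, DESeq2 called 1120 (431 higher, 689 lower), a depth term 425, the 7 myotube libraries alone 1 and a replicate block 3, and leaving out 1 library gave 1 (without dICR/dICR myotube 1) to 919 (without wild-type myotube 2). With library size alone as the scaling, 84 genes were called, 65 higher and 19 lower, 71 of them among the 92. Against wild-type myotubes 1 to 3, where 3 genes were called, DESeq2 called 630, no filter on low counts 161, the 7 libraries over 20 M counts 106, the 13 libraries with 6 means, added after seeing the data, 601 and a replicate block 0 (721 at an unadjusted p under 0.05), and leaving out 1 library gave 0 (without either dICR/dICR myotube) to 752 (without wild-type myotube 2). Same-numbered deviations from the group means correlated at 0.022 and -0.29, and crossed ones at 0.29 and -0.022. The deviations of the 2 dICR/dICR libraries mirror each other, so these values are not separate checks. Whether the replicate numbers pair the samples is thus unknown. No called value of a named gene changed sign. Repeats of the named genes' values over all libraries stayed on their side of the threshold 990 times, lost the call 906 times and gained it 4 times, and against wild-type 1 to 3 these counts were 788, 13 and 337. The causes were not tested. Repeats of the list medians, counted over lists and settings, stayed within the spread between replicates 885 times and moved beyond it 35 times over all libraries, and 502 and 50 times against wild-type 1 to 3. The 2 dICR/dICR libraries are both large, so genotype cannot be told apart from depth in any comparison with wild-type 4 and 5. Without dICR/dICR myotube 1, 91 of the 92 calls were lost.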
